A study of Mus musculus with 24 samples.

Results

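The mitochondrial respiratory chain was followed here through 84 nuclear genes in mouse sciatic nerve, measured on expression arrays in 4 genotypes at 3 ages. The genes were chosen by their annotated symbols, which begin with Nduf (a, b, c, s or v), Sdha to Sdhd, Uqcr, Cox4 to Cox8 or Atp5. They are 84 of the 12393 genes that the arrays measured with at least 1 unambiguous probe set. Of these, 34 encode subunits of complex I, 5 encode complex I assembly factors, 4 complex II, 8 complex III, 16 complex IV and 17 complex V. Within complex IV, 3 genes (Cox6a2, Cox7a1 and Cox8b) are the isoforms of heart and skeletal muscle, and 3 others (Cox4i2, Cox6b2 and Cox8c) are isoforms known from other tissues. The remaining 78 genes are called the main members below.

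The study compared wild type mice (WT), CHOP null mice, which lack the stress transcription factor CHOP encoded by Ddit3, S63del mice, which carry a mutant allele of myelin protein zero and model the neuropathy Charcot-Marie-Tooth 1B, and S63del/CHOP null mice, which carry the mutant allele and lack CHOP. Nerves were taken at postnatal day 5 (P5), when myelination begins, at P28, near its peak, and at 4 months, with 2 biological replicates in each of the 12 groups and 24 arrays in all. The perineurial sheath was stripped off, and the frozen nerve was pulverised before RNA was extracted. The number of animals behind a sample and their sex were not given in the sources used here. An S63del mouse expresses its mutant protein in myelinating Schwann cells, whereas CHOP was removed from all cells of the CHOP null nerve. The p-values below measure the spread between these samples. In bulk RNA such as this, a change in the number of cells of one type and a change of RNA per cell cannot be told apart.

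The respiratory chain lies in the inner mitochondrial membrane. Complex I takes electrons from NADH and complex II takes them from succinate, both pass them through ubiquinone to complex III, and cytochrome c carries them to complex IV, which reduces oxygen. Complexes I, III and IV pump protons, and complex V, the ATP synthase, lets them flow back to make ATP. Apart from a small set of subunits encoded in mitochondrial DNA, every subunit is encoded in the nucleus. In peripheral nerve, Schwann cells, axons and the cells of the blood vessels and connective tissue all hold mitochondria, but axonal mitochondria use nuclear transcripts made mostly in cell bodies outside the nerve.

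For some complex IV subunits, mammals have a widely expressed isoform and a muscle isoform encoded by separate genes. Promoter windows of the isoforms for which a sequence was listed are printed below, because the muscle isoforms and their counterparts behaved differently from array to array in these nerves. Each window runs from 250 bases before to 50 bases after the RefSeq transcription start in mouse assembly GRCm38.p6, read 5′ to 3′ on the gene's own strand. Capitals mark exact matches, on either strand, to the motif letters GCGCATGCG (the core bound by nuclear respiratory factor NRF1), CGGAAG (ETS family, including GABP) and AAGATGGC (YY1), all 3 being motifs known from promoters of respiratory chain genes. Cox6a1 lies at chr5:115348909-115349208 on the minus strand, Cox7a2 at chr9:79759804-79760103 on the minus strand and Cox8a at chr19:7217567-7217866 on the minus strand. Of the muscle isoforms, Cox7a1 lies at chr7:30183921-30184220 on the plus strand and Cox8b at chr7:140900397-140900696 on the minus strand.
Cox6a1: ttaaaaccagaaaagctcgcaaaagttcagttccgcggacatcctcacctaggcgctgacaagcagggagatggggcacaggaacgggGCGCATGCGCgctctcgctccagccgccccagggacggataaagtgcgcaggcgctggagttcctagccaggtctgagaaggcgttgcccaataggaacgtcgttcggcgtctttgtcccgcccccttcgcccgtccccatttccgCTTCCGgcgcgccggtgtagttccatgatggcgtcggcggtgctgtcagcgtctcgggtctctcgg
Cox7a2: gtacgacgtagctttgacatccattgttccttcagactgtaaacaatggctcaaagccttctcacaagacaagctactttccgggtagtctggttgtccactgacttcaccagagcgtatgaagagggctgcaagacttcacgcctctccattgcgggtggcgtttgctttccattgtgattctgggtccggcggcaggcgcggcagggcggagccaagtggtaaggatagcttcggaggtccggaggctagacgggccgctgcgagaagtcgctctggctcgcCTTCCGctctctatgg
Cox8a: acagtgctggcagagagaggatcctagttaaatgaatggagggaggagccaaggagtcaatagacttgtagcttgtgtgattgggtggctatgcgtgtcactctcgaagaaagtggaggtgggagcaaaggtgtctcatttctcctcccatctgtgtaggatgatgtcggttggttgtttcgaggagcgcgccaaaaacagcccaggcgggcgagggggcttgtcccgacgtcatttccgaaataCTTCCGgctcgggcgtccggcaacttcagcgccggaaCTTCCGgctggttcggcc
Cox7a1: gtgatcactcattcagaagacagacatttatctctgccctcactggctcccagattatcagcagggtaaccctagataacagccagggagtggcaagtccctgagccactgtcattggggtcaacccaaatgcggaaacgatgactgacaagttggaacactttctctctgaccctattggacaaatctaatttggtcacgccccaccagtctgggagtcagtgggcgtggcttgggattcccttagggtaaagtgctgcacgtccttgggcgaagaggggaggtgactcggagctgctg
Cox8b: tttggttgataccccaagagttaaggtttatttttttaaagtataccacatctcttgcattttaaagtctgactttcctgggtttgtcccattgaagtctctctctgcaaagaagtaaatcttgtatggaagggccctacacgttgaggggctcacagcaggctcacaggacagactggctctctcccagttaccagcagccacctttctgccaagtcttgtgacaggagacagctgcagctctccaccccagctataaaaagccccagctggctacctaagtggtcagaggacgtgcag

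The widely expressed Cox6a1 held the NRF1 letters, overlapping on both strands because they are nearly palindromic, and an ETS match. Cox7a2 and Cox8a held ETS matches. The windows of Cox7a1 and Cox8b held none of the 3 motifs, which says only that these letters are not in these windows. GC content was 63% in Cox6a1, 56.7% in Cox7a2 and 56.0% in Cox8a, against 53.0% in Cox7a1 and 48.3% in Cox8b. A promoter was listed for 70 of the 84 genes. Of these 70 windows, 9 (12.9%) held the NRF1 letters, 32 (45.7%) the ETS letters and 8 (11.4%) the YY1 letters. Among windows of the same length of 9883 genes on the array, the shares were 3.0% for NRF1, 26.6% for ETS and 4.0% for YY1, and 30.7% held at least 1 of the 3 against 55.7% of the respiratory chain genes. No window was listed for Atp5a1, Atp5mpl, Cox4i1, Cox4i2, Cox6a2, Cox6c, Cox8c, Ndufa2, Ndufb9, Ndufs1, Sdhc, Uqcrb, Uqcrc2 and Uqcrq.

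All values are the deposited log2 values of 1 probe set per gene, so that a difference of 1 is a doubling. Genes were ranked by mean signal to give the percentiles and deciles that mark bright and dim genes. Apart from that, values of different genes were not ranked against each other. By mean over the 24 arrays, 66 of the 84 genes lay above the 90th percentile of the 12393 genes and 6 lay below the 50th, Cox7c and Cox4i2 among them. Ddit3 fell within 6.60 to 7.37 on the 12 arrays of nerves without CHOP and at 7.61 or higher on the other 12, so that no array went against its label for CHOP. Schwann cell and myelin genes were bright on every array, with a list mean of 11.71 to 12.25. The P28 arrays had a narrower distribution than the others. The standard deviation over all probe sets was 2.1 to 2.31 at P28, against 2.4 to 2.42 at P5 and 2.42 to 2.44 at 4 months, and the mean of the dimmest decile of genes was 3.76 to 4.21, against 3.55 to 3.62 and 3.56 to 3.66. The CHOP null P28 pair differed most between replicates, with a residual SD of 0.394 over all genes against 0.123 to 0.227 in the other groups. Because each age holds its own arrays, age and array processing cannot be told apart.

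Between P5 and 4 months, the ages with like distributions, respiratory chain transcripts moved little and in both directions. The median of the main members was 11.16 to 11.40 on the 8 arrays at P5, 10.92 to 11.11 at P28 and 11.07 to 11.30 at 4 months, so that P5 and 4 months overlapped and P28 lay below P5 on every array. At 4 months, 13 of the 84 genes were higher and 32 lower than at P5, by limma over all 24 arrays with Benjamini-Hochberg adjustment and a threshold of 0.05. That is 45 of 84 (53.6%), where 57.3% of all genes were called. The median difference (4 months minus P5) was -0.07 over the 84 genes and 0.01 over all genes. When the arrays were quantile normalised again, the split was 10 higher and 40 lower, beside 3305 and 3928 over all genes (3837 and 3267 as deposited). This comparison was added after the data had been seen, because of the narrower P28 arrays.

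Most of these differences were small. Of the 78 main members, 10 (12.8%) differed by more than 0.5 on the log2 scale; the share was 31.2% of all genes and 36.9% of the genes in the highest decile by mean signal. In 34 genes the 8 arrays of one age all lay above or all below the 8 of the other (12 above and 22 below at 4 months), which is 40.5% of the 84 and the same share, 40.5%, as over all genes. All 45 called genes differed in the same direction in each of the 4 genotypes, as did 96.3% of all called genes. A further 52 probe sets of these genes were brighter than the median gene. Of the 28 that belonged to a called gene, 27 had the same sign of difference, the exception being the second probe set of Cox6a1.

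**Figure D1:**
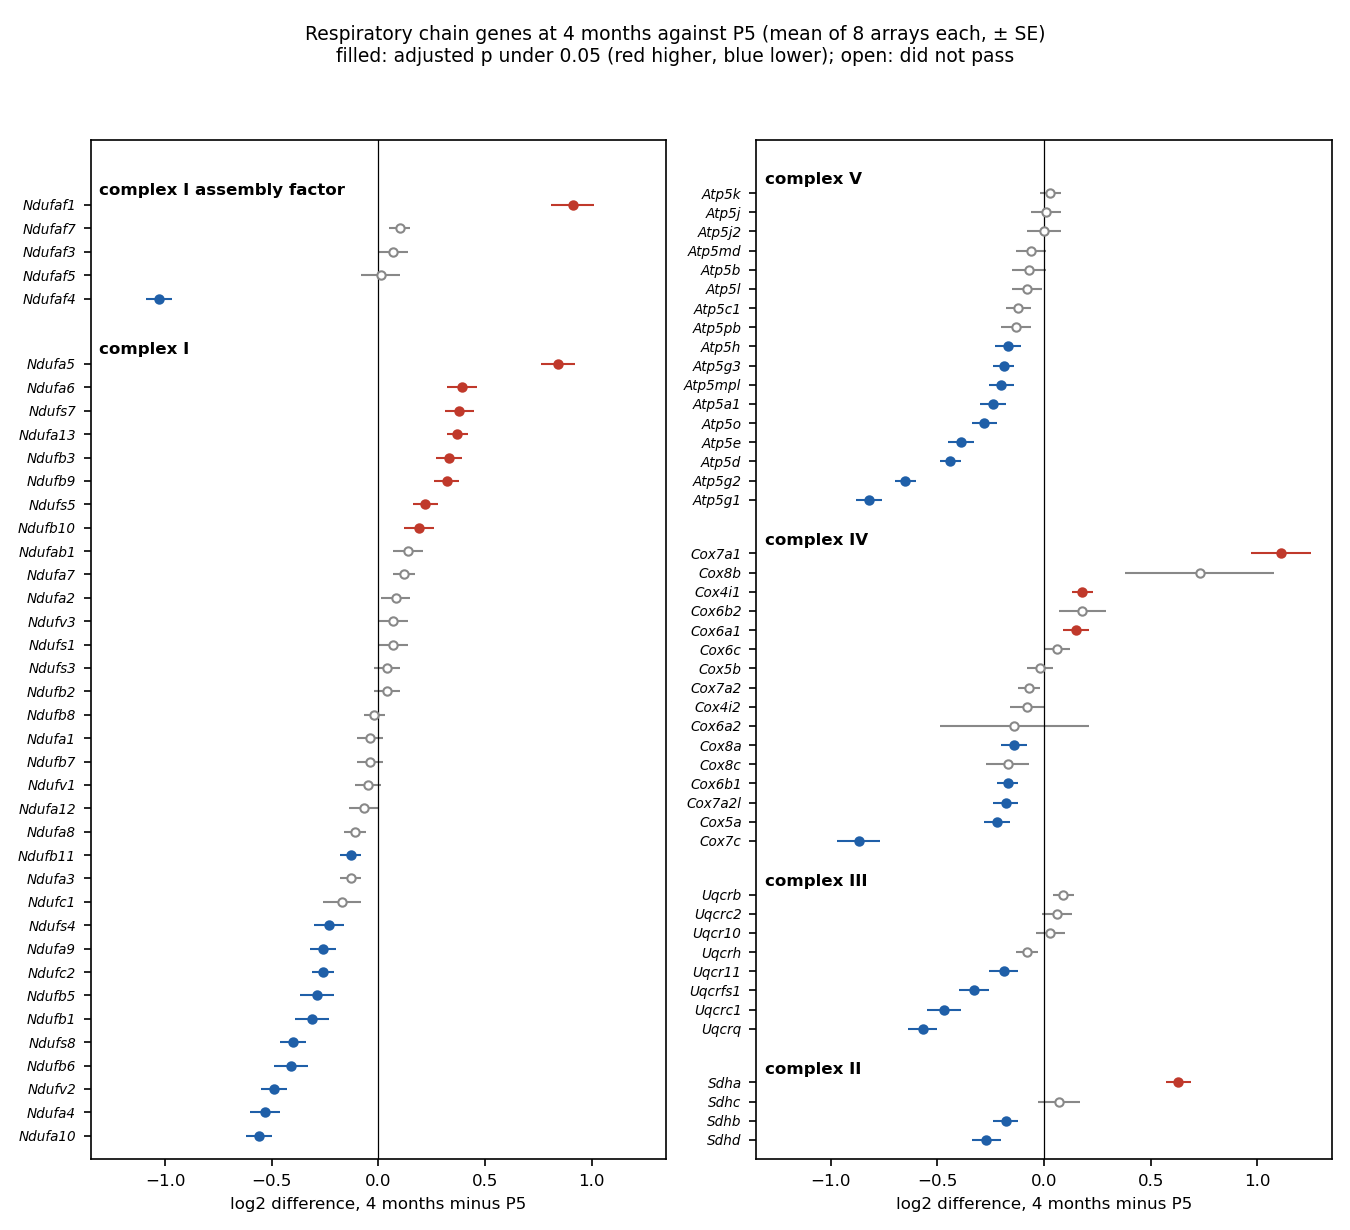
Difference between 4 months and P5 for each of the 84 genes, grouped by complex, on a log2 scale, with standard errors from limma (8 arrays per age). Filled points passed an adjusted p of 0.05: complex V has 9 blue points and no red one, whereas complex I has 8 red and 11 blue. Over all genes 57.3% passed in either direction.

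Complex I was divided at 4 months, with 8 of its 34 subunit genes higher and 11 lower than at P5 and a median difference of -0.04. Of all genes, 57.3% were called in this comparison, in either direction. Ndufa5, an accessory subunit of the arm that faces the matrix, ranged from 10.38 to 10.78 (median 10.54) at P5, from 9.68 to 10.35 (median 10.12) at P28 and from 11.30 to 11.51 (median 11.35) at 4 months. Every 4-month array was above every other array, and the rise from P5 was 0.84 ± 0.08 (SE; adjusted p = 9.96e-08), with 0.93 by its second probe set. Between P5 and P28 that second probe set moved the other way, by 0.29 against -0.44 in the one used. Ndufs7, which carries the last iron-sulfur cluster before ubiquinone, ranged from 10.48 to 10.75 at P5, 9.99 to 10.34 at P28 and 10.89 to 11.20 at 4 months, so that the ages did not overlap. Its rise from P5 was 0.38 ± 0.07 (adjusted p = 7.92e-05). Here too the second probe set differed in sign between P5 and P28, at 0.1 against -0.48. The accessory membrane subunits Ndufa13 and Ndufb9 rose by 0.37 and 0.32 (adjusted p = 5.22e-06 and 8.28e-05).

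Among complex I genes that fell, Ndufv2, an iron-sulfur subunit of the NADH-oxidising module, ranged from 12.08 to 12.34 (median 12.26) at P5, from 11.58 to 11.93 (median 11.78) at P28 and from 11.65 to 11.89 (median 11.73) at 4 months. It was lower at both later ages on every array, by 0.49 ± 0.06 (SE) from P5 to 4 months (adjusted p = 1.38e-06). Ndufs8, the iron-sulfur subunit that works beside Ndufs7, moved the other way from it, falling by 0.40 ± 0.06 to 4 months (adjusted p = 1.31e-05). Its P5 arrays, at 11.99 to 12.23, were all above its 4-month arrays, at 11.54 to 11.78. The accessory subunit Ndufa10 fell by 0.56 ± 0.06 (adjusted p = 5.01e-07) by its brighter probe set and differed by -0.19 (adjusted p = 0.032) in the mean of its probe sets, of which the second is dim. Ndufa4, named as a complex I subunit but now regarded as part of complex IV, fell by 0.53 ± 0.07 (adjusted p = 2.01e-06), from 11.18 to 11.54 at P5 to 10.55 to 10.97 at 4 months.

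The assembly factors held the largest fall and the second largest rise of all 84 genes. Ndufaf4, which takes part in building the matrix arm of complex I, ranged from 9.40 to 9.74 (median 9.52) at P5, from 8.22 to 8.76 (median 8.36) at P28 and from 8.32 to 8.69 (median 8.53) at 4 months. Both later ages lay below P5 on every array, and the fall to 4 months was 1.03 ± 0.06 (SE; adjusted p = 1.6e-10). Its second probe set differed by only -0.20, and the mean of both by -0.62 (adjusted p = 7.45e-06). Ndufaf1, a factor for the membrane arm, ranged from 7.11 to 7.63 at P5, from 6.67 to 7.47 at P28 and from 8.14 to 8.68 at 4 months, where every array was higher than at either younger age. Its rise from P5 was 0.91 ± 0.10 (adjusted p = 3.37e-07). The other 3 of the 5 assembly factors did not pass the test.

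In complex II, which is also the succinate dehydrogenase of the citrate cycle, the catalytic flavoprotein subunit and the other subunits parted. Sdha, the flavoprotein, ranged from 10.67 to 10.83 (median 10.74) at P5, from 10.56 to 11 (median 10.81) at P28 and from 11.26 to 11.47 (median 11.39) at 4 months. All 4-month arrays were higher than all younger ones, by 0.63 ± 0.06 (SE) over P5 (adjusted p = 1.37e-07) and by 1.02 in its second probe set. The probe sets differed over when Sdha rose. From P5 to P28 the one used differed by 0.03 (adjusted p = 0.633) and the second by 0.69. Their mean differed by 0.36 (adjusted p = 1.54e-05). Sdhb, the iron-sulfur subunit, fell by 0.18 ± 0.06 (adjusted p = 0.00983) with overlapping ages. Sdhd, a membrane anchor, fell by 0.27 ± 0.07 (adjusted p = 0.00188), also with overlap, and in the mean of its probe sets it differed by -0.18 (adjusted p = 0.164). Sdhc, the other anchor, differed by 0.07 ± 0.10 (adjusted p = 0.602).

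None of the 8 complex III genes was higher at 4 months and 4 were lower, with a median of -0.14. The share called over all genes was 57.3%, in either direction. Uqcrq, a small subunit beside cytochrome b, ranged from 10.68 to 11.18 (median 10.94) at P5, from 10.48 to 11.07 (median 10.79) at P28 and from 10.19 to 10.54 (median 10.35) at 4 months. The 4-month arrays lay below all P5 arrays, by 0.57 ± 0.07 (SE; adjusted p = 1.57e-06), whereas P5 and P28 overlapped. Averaging in its 3 dim probe sets left a difference of -0.20 (adjusted p = 0.0172). Uqcrc1, a core protein, fell by 0.47 ± 0.08 (adjusted p = 4.3e-05), from 10 to 10.28 at P5 to 9.34 to 9.86 at 4 months. Uqcrfs1, the Rieske iron-sulfur protein, fell by 0.33 ± 0.07 (adjusted p = 0.000461), again with no overlap. Uqcr11, a small subunit, fell by 0.19 ± 0.07 (adjusted p = 0.0268) with overlapping ages. It no longer passed without replicate 1 of WT P5, CHOP null P5, CHOP null 4 months or S63del 4 months, or replicate 2 of S63del P5, S63del/CHOP null P5, WT 4 months or S63del/CHOP null 4 months (differences of -0.15 to -0.19, adjusted p = 0.0516 to 0.084).

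In complex V, 9 of 17 genes were lower at 4 months and none was higher, with a median of -0.17, where 57.3% of all genes were called in either direction. After renewed quantile normalisation the count was 12 lower and none higher. Atp5g1, Atp5g2 and Atp5g3 are separate genes for the same mature protein, the subunit of the rotating ring in the membrane. Atp5g1 ranged from 10.91 to 11.16 (median 11.01) at P5, from 10.29 to 10.62 (median 10.43) at P28 and from 10 to 10.39 (median 10.22) at 4 months. It was lower at both later ages on every array, by 0.82 ± 0.06 (SE) at 4 months (adjusted p = 1.14e-09). Atp5g2 fell by 0.65 ± 0.05 (adjusted p = 9.25e-09), from 11.33 to 11.51 at P5 to 10.44 to 10.94 at 4 months, and in the mean with its dim second probe set by 0.43 (adjusted p = 4.91e-07). Atp5g3 fell by 0.19 ± 0.05 (adjusted p = 0.0048), from 12.42 to 12.56 to 12.18 to 12.38, so that none of the 3 overlapped between P5 and 4 months. The central stalk subunits Atp5d and Atp5e fell by 0.44 ± 0.05 and 0.39 ± 0.06 (adjusted p = 1.84e-06 and 3.7e-05), and Atp5d by 0.74 in the mean of its probe sets.

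Of the 10 main isoforms of complex IV, 2 were higher and 5 lower at 4 months, where 57.3% of all genes were called. Cox4i1, the regulatory subunit that joins early in assembly, ranged from 12.48 to 12.62 at P5, from 12.29 to 12.47 at P28 and from 12.62 to 12.82 at 4 months. It rose by 0.18 ± 0.05 (SE; adjusted p = 0.00555) from P5, and the difference was 0.06 (adjusted p = 0.283) after renewed quantile normalisation. Cox6a1 was 0.15 ± 0.06 higher (adjusted p = 0.0364), but its second probe set differed by -0.03 and the difference was 0.06 (adjusted p = 0.421) after renewed normalisation; it passed under 8 of 23 alternatives, and leaving out any of 12 of the 16 single arrays lost the call (adjusted p of up to 0.0998). Cox5a, which forms the matrix side with its partner Cox5b, fell by 0.22 ± 0.06 (adjusted p = 0.00672). Cox8a was also among the lower, at -0.14 (adjusted p = 0.0403), but passed under only 8 of 23 alternatives. In the mean of its probe sets it differed by -0.15 (adjusted p = 0.0694). Cox7c, a small membrane subunit, ranged from 6.68 to 7.03 (median 6.89) at P5, from 4.39 to 5.87 (median 5.04) at P28 and from 5.78 to 6.18 (median 6.02) at 4 months. It was lower at both later ages on every array, by 0.87 ± 0.10 at 4 months (adjusted p = 4.06e-07). Both Cox7c probe sets were dim for this group of genes, the brighter at the 32.2 percentile of all genes, and the second differed by -1.14.

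**Figure D2:**
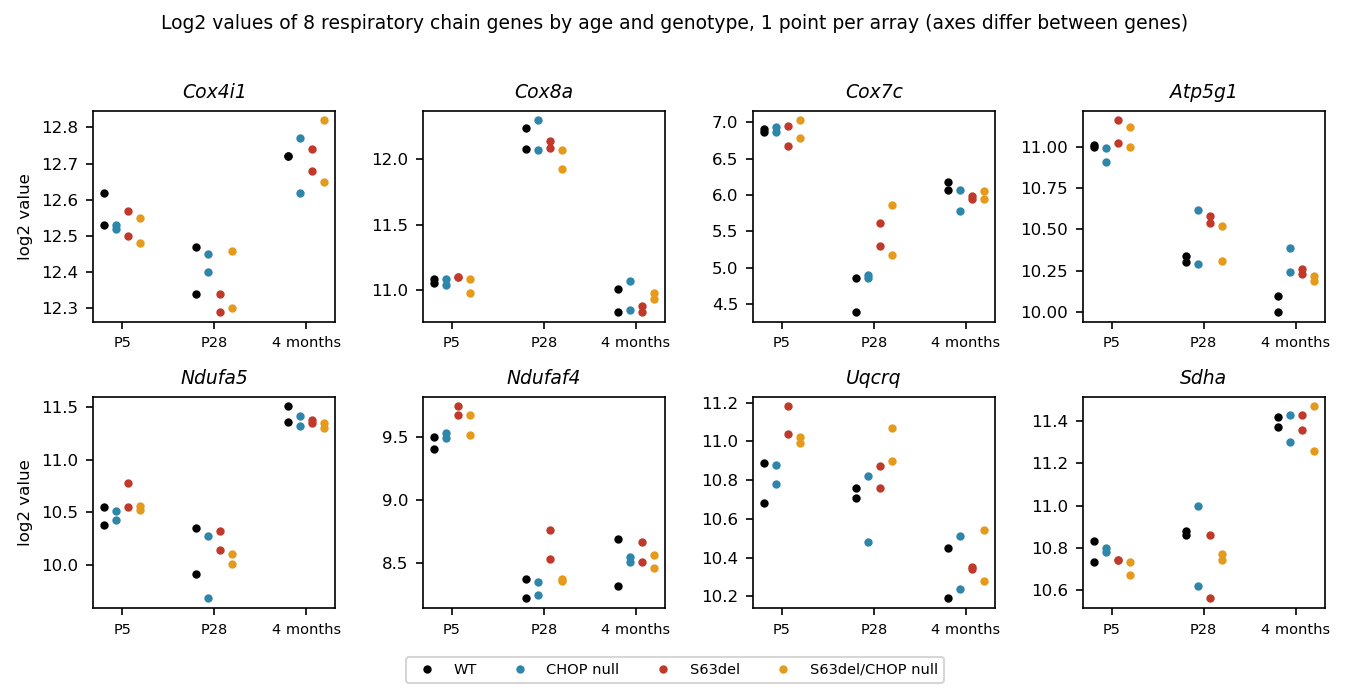
Log2 values of 8 genes on each of the 24 arrays, by age and genotype, with a separate vertical axis for each gene. Ndufa5 and Sdha lie higher on all 4-month arrays than at the younger ages, Atp5g1 and Ndufaf4 lie highest at P5, and Cox8a lies above 11.9 on every P28 array and below 11.2 elsewhere.

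At P28, the peak of myelination, respiratory chain genes were mostly lower than at P5. The count was 18 higher and 47 lower, 65 of 84 (77.4%) where 81.6% of all genes were called, with a median difference of -0.18 against 0.12 over all genes. This shift differed with signal strength. The median of all genes (P28 minus P5) was between 0.28 and 0.52 in the 4 dimmest deciles and between -0.23 and -0.05 in the 6 brighter ones, and the highest decile, which holds 66 of the 84 genes, had -0.14 where those 66 genes had -0.18. From P5 to 4 months the median was between -0.01 and 0.07 in every decile. From P28 to 4 months, 43 of the 84 genes rose and 23 fell, 66 in all (78.6%) where 78.2% of all genes were called. After renewed quantile normalisation this split was 32 higher and 29 lower, so that the excess of rises depended on the scaling, whereas the split between P5 and P28 was 20 higher and 45 lower.

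**Figure D3:**
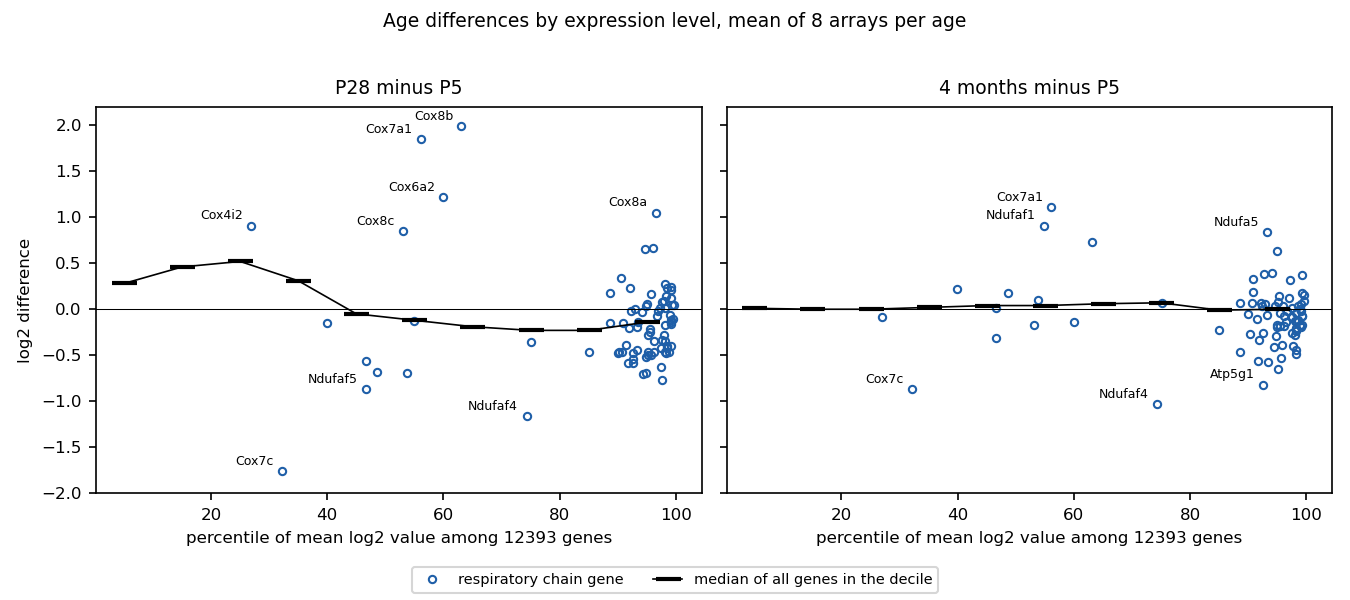
Difference from P5 at P28 (left) and at 4 months (right) for each of the 84 genes against the percentile of its mean signal among all 12393 genes, with bars for the median of all genes in each decile. The medians bend upward in the dim deciles at P28 and stay between -0.01 and 0.07 at 4 months.

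Some genes rose to P28 and fell again. Cox8a, the widely expressed form of a small membrane subunit of complex IV, ranged from 10.98 to 11.10 (median 11.08) at P5, from 11.93 to 12.30 (median 12.08) at P28 and from 10.83 to 11.07 (median 10.91) at 4 months. Every P28 array was higher than every other array. The rise from P5 was 1.05 ± 0.06 (SE; adjusted p = 3.36e-11) and the later fall 1.19 ± 0.06 (adjusted p = 4.88e-11), with a rise of 0.82 in the second bright probe set. Uqcr10, a small complex III subunit, rose by 0.67 ± 0.07 and fell again by 0.63 ± 0.07 (adjusted p = 1.68e-07 and 4.54e-07); with its 2 dim probe sets averaged in, these were 0.30 and -0.23. Ndufb2, an accessory membrane subunit of complex I, rose by 0.65 ± 0.06 and fell by 0.61 ± 0.06 (adjusted p = 2.99e-08 and 1.11e-07). In the mean of its probe sets these differences were 0.47 and -0.45. By the probe set used, Ndufb2 ranged from 10.57 to 10.86 at P5, 11.19 to 11.49 at P28 and 10.65 to 10.83 at 4 months. The first and last age thus overlapped and P28 stood apart. Cox4i2, the lung-type counterpart of Cox4i1 known to respond to low oxygen, rose by 0.91 ± 0.08 and fell by 0.99 ± 0.08 (adjusted p = 9.46e-09 and 7.36e-09). It is dim, at the 26.9 percentile, and rose with its own decile, whose median gene differed by 0.52 between P5 and P28. The genes most like it over the 24 arrays were Zim3, Lce1b, Capn8, Cacng4 and Wnt7b (Pearson r from 0.97 to 0.96), dim genes as well, at the 16.5 to 31.3 percentile, which differed by 0.91 to 1.32 between P5 and P28. Lce1b among them is known from the outer layer of the skin.

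By complex, 22 of 34 complex I genes were lower and 4 higher at P28 than at P5, and 25 were higher and 3 lower at 4 months than at P28; after renewed normalisation the later counts were 15 and 7. Complex V had 12 lower and 4 higher of 17 at P28. Among the higher, Atp5k and Atp5d differed by -0.03 and -0.01 in the mean of their probe sets. Atp5g3 passed under 9 of 23 alternatives and Atp5mpl under 23. Complex III had 2 higher and 1 lower at P28, and 5 lower and none higher from P28 to 4 months. At P28 Uqcr10 passed under 23 of 23 alternatives and Uqcrc1 under 11. The fall of Uqcrfs1 was -0.04 (adjusted p = 0.503) after renewed normalisation. Over all genes 81.6% were called between P5 and P28, and 78.2% between P28 and 4 months. Ndufs8 showed the lowest adjusted p in complex I at P28, with a fall of 0.77 ± 0.06 (adjusted p = 3.8e-09), and -0.39 in the mean of its probe sets. Of the 5 assembly factors 4 were lower at P28, Ndufaf4 by 1.16 ± 0.06 and Ndufaf5 by 0.87 ± 0.09 (adjusted p = 3.93e-11 and 1.31e-07). Ndufaf5 returned by 4 months, with a rise of 0.88 ± 0.09 (adjusted p = 1.87e-07), whereas Ndufaf4 differed by 0.13 ± 0.06 (adjusted p = 0.0663).

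In WT nerves alone, with 2 arrays at each age, the same counts were smaller. Between P5 and P28, 8 genes were higher and 38 lower, 46 in all where 59.5% of all genes were called; renewed normalisation gave 12 and 27, and leaving out 1 array in turn gave 29 (without WT P5 replicate 1) to 43. Between P28 and 4 months, 30 were higher and 14 lower, 44 in all where 57% of all genes were called; renewed normalisation gave 18 and 21, and leaving out 1 array gave 26 (without WT P28 replicate 1) to 43. Between P5 and 4 months, 8 were higher and 16 lower, 24 in all where 36.8% of all genes were called, and 14 (without WT P5 replicate 2) to 19 without 1 array. Ndufa5 and Atp5g1 kept their direction in each genotype. From P5 to 4 months Ndufa5 differed by 0.97 in WT, 0.90 in CHOP null, 0.70 in S63del and 0.78 in S63del/CHOP null nerves. For Atp5g1 these differences were -0.96, -0.63, -0.84 and -0.86.

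The 3 muscle isoforms of complex IV varied from array to array far more than the main members. The SD between replicates was 0.82 for Cox6a2, 0.81 for Cox8b and 0.32 for Cox7a1, whereas it lay between 0.06 and 0.21 (median 0.11) in the main members and had a median of 0.16 over all genes. In the order WT, CHOP null, S63del and S63del/CHOP null, with 2 replicates each, Cox6a2 at P28 was 9.79 and 9.19, 9.98 and 8.93, 7.13 and 8.93, and 9.30 and 7.31. One S63del and one S63del/CHOP null array were low, and the other replicates of those genotypes lay within the range of the rest. On the same arrays Ckm, the muscle creatine kinase, was 12.02 and 11.56, 12.03 and 10.12, 8.15 and 11.39, and 11.59 and 8.35, so that the same 2 arrays were low.

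Within each of the 12 groups, the replicate with more Cox6a2 also had more Ckm, and more of the mean of 31 skeletal muscle genes, in 12 of 12 groups. For Cox7a1 and Cox8b the count against Ckm was 9 of 12, and against the mean of 9 brown fat genes 11 of 12. Against Ucp1 alone, a brown fat gene, it was 8 of 12 for both, as it was against the mean of the white fat genes. The median of the main members followed Ckm in 6 of 12. Cox7a1 and Cox8b are known from brown fat as well as muscle. The genes whose pattern over the 24 arrays was most like Cox6a2 were Ldb3, Myoz1, Atp2a1, Ckm and Trdn, with Pearson r from 0.99 to 0.96, which are genes of the contractile apparatus, calcium handling and energy store of muscle. Most like Cox7a1 was Gpd1 (r = 0.95), a glycerol phosphate dehydrogenase abundant in fat and muscle, followed by Sfrp1, Fcgrt, Pcx and Folr2. Most like Cox8b were Kcnk3 (r = 0.89) and Cox7a1 (r = 0.88). These correlations describe arrays that share their ages and tissue pieces.

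**Figure D4:**
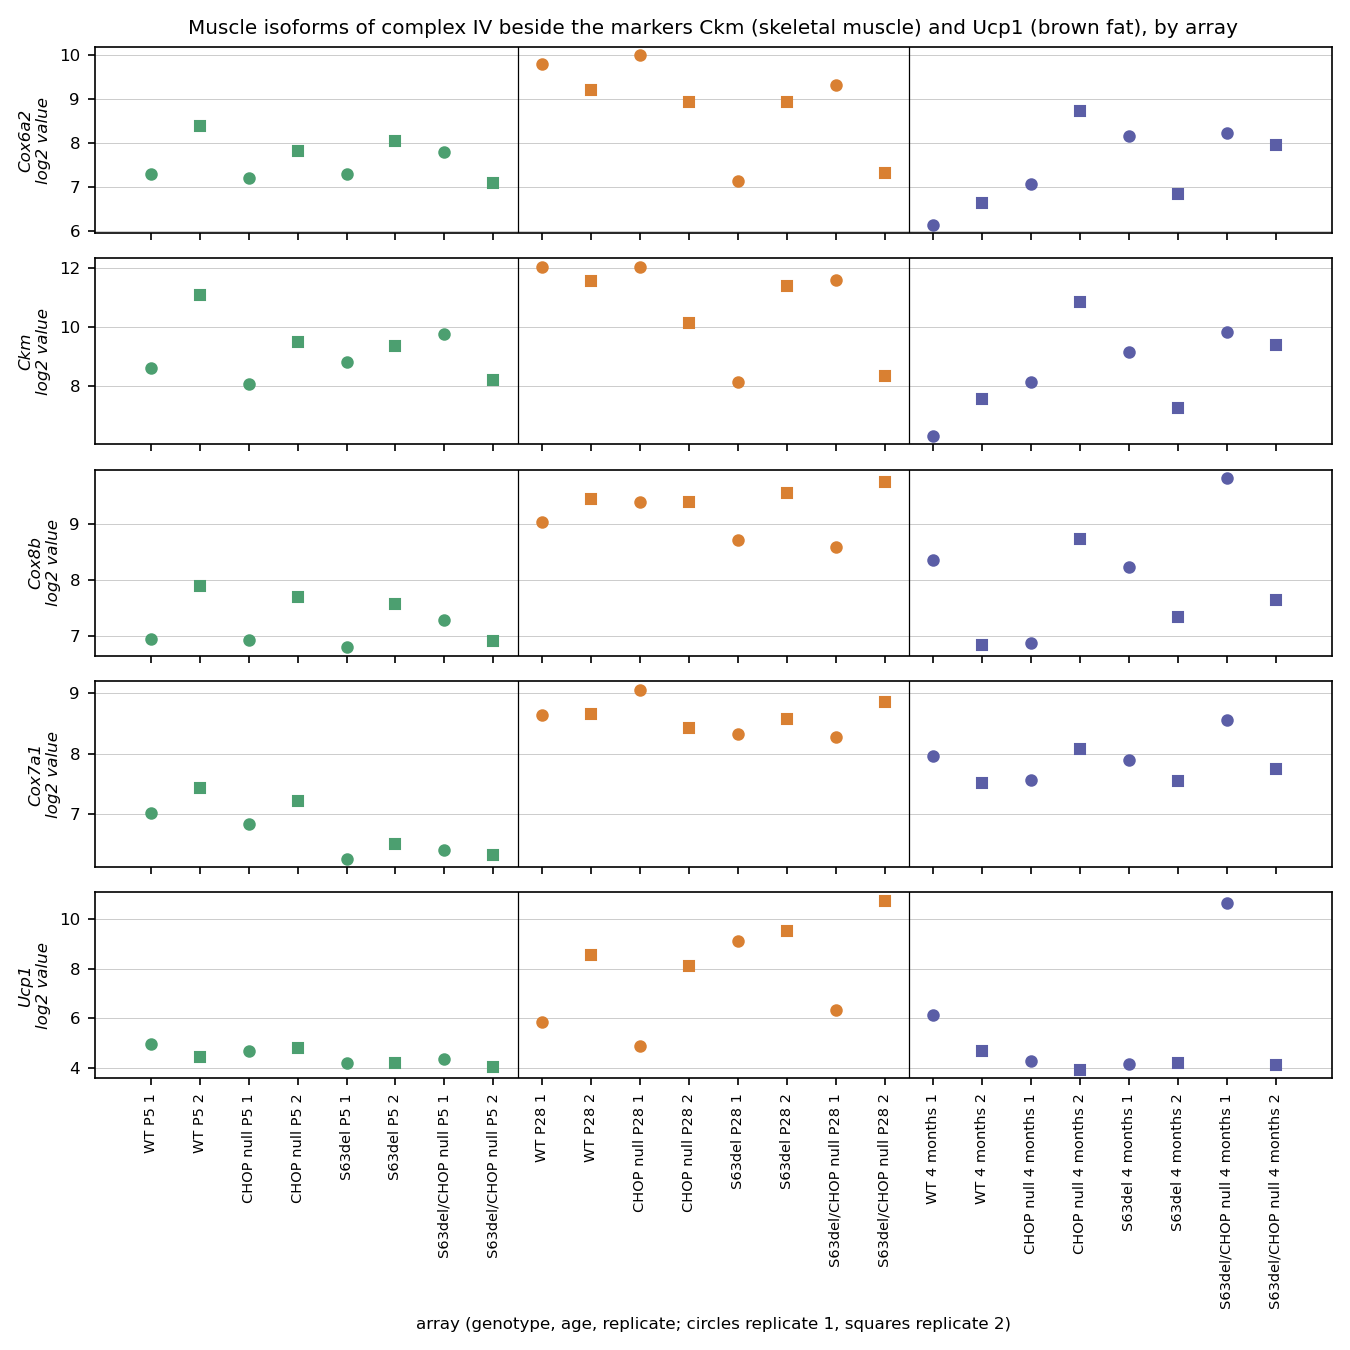
Log2 values of Cox6a2, Cox8b and Cox7a1 beside Ckm (skeletal muscle) and Ucp1 (brown fat) on each of the 24 arrays, with a separate axis for each gene. Cox6a2 and Ckm are low on the same 2 P28 arrays, and Ucp1 is 10.64 on S63del/CHOP null 4-month replicate 1, the array with the highest Cox8b of its age.

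Markers of other tissues moved with age beside these isoforms. The mean of the 31 skeletal muscle genes was 7.20 to 9.17 at P5, 7.11 to 10.36 at P28 and 6.42 to 9.23 at 4 months. The mean of 9 brown fat genes was 5.46 to 5.88, 6.02 to 7.17 and 5.38 to 7.57, and Ucp1, the uncoupling protein that defines brown fat, was 4.05 to 4.97 at P5 and up to 10.73 at P28. The mean of 14 white fat genes was 7.29 to 8.24, 9.99 to 10.79 and 10.50 to 11.14, and all 14 were higher at 4 months than at P5. Markers of cells that belong to the nerve moved with age as well. Between P5 and 4 months, fibroblast and perineurium genes went from 10.77 to 11.10 up to 11.62 to 11.75, macrophage genes from 8.35 to 8.73 up to 9.04 to 9.54, and endothelium and pericyte genes from 8.01 to 8.44 up to 8.72 to 9.03, while erythroid genes went from 6.08 to 7.14 down to 5.29 to 6.03. None of these 4 overlapped between the ages, whereas Schwann cell and myelin genes, at 11.71 to 12.23 and 11.71 to 11.95, did. The share of these tissues and cells in the age differences of the 84 genes was not tested.

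All 3 muscle isoforms were higher at P28 than at P5. Cox8b ranged from 6.79 to 7.88 (median 7.11) at P5, from 8.59 to 9.76 (median 9.40) at P28 and from 6.83 to 9.82 (median 7.94) at 4 months, so that P5 and P28 did not overlap and 4 months spanned both. It rose by 1.99 ± 0.35 (SE; adjusted p = 5.08e-05) and fell by 1.26 ± 0.35 (adjusted p = 0.00323), and 4 months differed from P5 by 0.73 ± 0.35 (adjusted p = 0.084). Without replicate 2 of WT 4 months, replicate 1 of CHOP null 4 months or replicate 2 of S63del/CHOP null 4 months, the last difference was 0.92 to 1 and passed (adjusted p = 0.0129 to 0.0355). Cox7a1 ranged from 6.26 to 7.43 (median 6.66) at P5, from 8.27 to 9.06 (median 8.60) at P28 and from 7.51 to 8.56 (median 7.82) at 4 months, and both later ages lay above P5 on every array. It rose by 1.85 ± 0.14 to P28 (adjusted p = 2.76e-09) and remained 1.11 ± 0.14 above P5 at 4 months (adjusted p = 2.05e-06). Cox6a2 rose by 1.22 ± 0.35 (adjusted p = 0.00413) and fell by 1.36 ± 0.35 (adjusted p = 0.00195), with overlapping ages throughout, and 4 months differed from P5 by -0.14 ± 0.35 (adjusted p = 0.767). The counterparts Cox6a1 and Cox7a2 differed by -0.11 ± 0.06 and 0.05 ± 0.05 from P5 to P28 (adjusted p = 0.0945 and 0.356), while Cox8a rose as given above.

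Few respiratory chain genes passed the test between genotypes. Between S63del and WT, none of the 84 genes passed limma's test at P5 (3 had an unadjusted p under 0.05), where 2.4% of all genes were called. At P28, 2 passed (8 unadjusted), where 4.62% of all genes were called, and at 4 months none did (1 unadjusted), where 0% were called. The median difference of the 84 genes was 0.01, 0.04 and -0.02 at the 3 ages, and the median SE of a gene was 0.13. Averaged over the ages 1 passed (7 unadjusted), where 6.89% of all genes were called. Between CHOP null and WT, none passed limma's test at P5, P28 or 4 months (0, 0 and 3 unadjusted), where 0%, 0% and 0.00807% of all genes were called, the last being Ddit3 alone. Over the 3 ages none passed (0 unadjusted), where 0.00807% were called. Without CHOP null P28 replicate 1 the P28 count was 11, and without WT 4-month replicate 2 the 4-month count was 1.

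The loss of CHOP in the mutant was compared next. Between S63del/CHOP null and S63del none of the 84 genes passed limma's test at P5 (0 unadjusted), P28 (2 unadjusted) or 4 months (0 unadjusted), where 0.0161%, 0.00807% and 0.00807% of all genes were called. Over the 3 ages none passed (1 unadjusted, Ndufaf4 at -0.16), where 0.00807% were called. The differences of the 84 genes spanned -0.21 to 0.22 at P5, -0.31 to 0.32 at P28 and -0.15 to 0.95 at 4 months, the last being Cox8b (0.95 ± 0.69 SE; adjusted p = 0.999). The change of the S63del effect between ages was also tested. None of the 84 passed between P5 and P28 (3 unadjusted; 0.476% of all genes called) or between P28 and 4 months (6 unadjusted; 0.169% of all genes called), and Cox7c had the lowest adjusted p in both, 0.251 and 0.306. A p above the threshold does not show that the genotypes were alike.

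**Figure D5:**
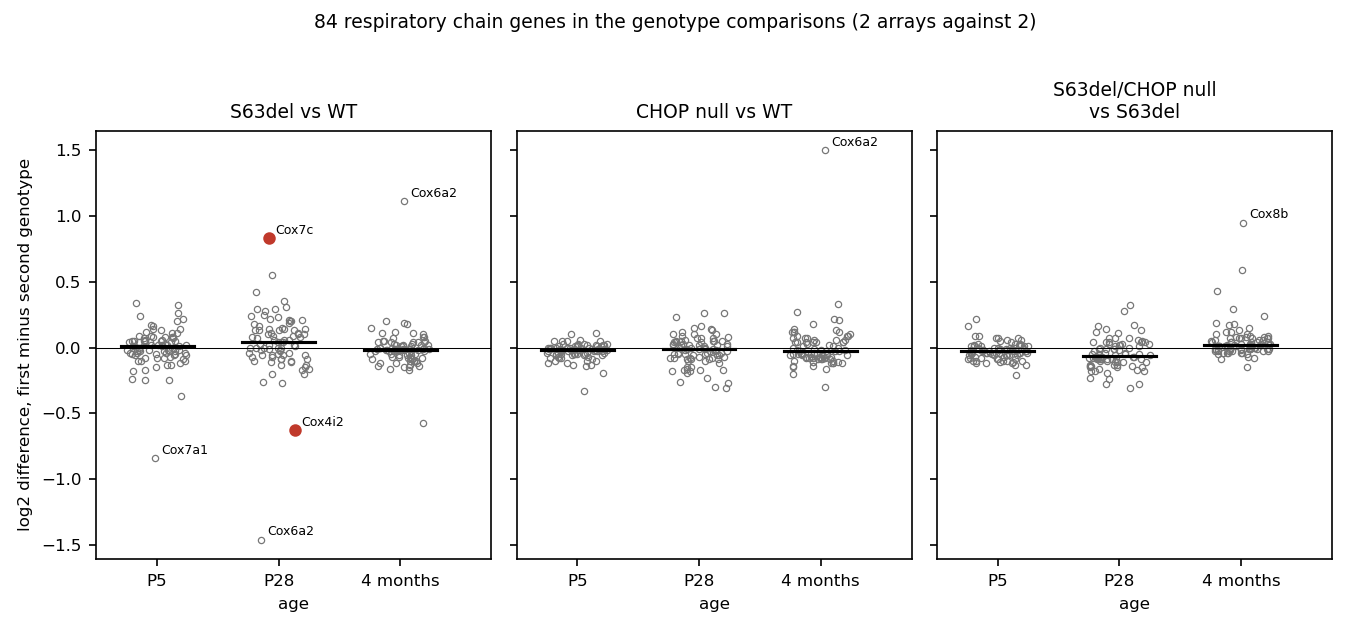
Differences of the 84 genes in the genotype comparisons at each age (log2 scale, 2 arrays against 2), with the median as a bar. Filled points passed an adjusted p of 0.05: only Cox7c and Cox4i2, in S63del against WT at P28, did, and the open points farthest from 0 are muscle isoforms.

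The genes called at P28 were the dim Cox7c and Cox4i2. The WT arrays had Cox7c at 4.39 and 4.86, the CHOP null arrays at 4.86 and 4.90, the S63del arrays at 5.61 and 5.30 and those of S63del/CHOP null nerves at 5.87 and 5.18, so that all 4 arrays with the mutant allele were above all 4 without it. S63del was 0.83 ± 0.19 (SE) above WT (adjusted p = 0.0218), while its second probe set differed by 0.11. The call passed under 6 of 11 alternatives, with adjusted p from 0.0137 to 0.309, and was lost without WT P28 replicate 1 (0.59, adjusted p = 0.265), S63del P28 replicate 1 (0.68, adjusted p = 0.216) or S63del P28 replicate 2 (0.98, adjusted p = 0.0513). The WT arrays had Cox4i2 at 6.61 and 6.49, the CHOP null arrays at 6 and 6.49, the S63del arrays at 5.79 and 6.05 and those of S63del/CHOP null nerves at 6.08 and 6.03. WT lay above S63del, but 1 CHOP null array fell among those with the allele. S63del was 0.63 ± 0.15 below WT (-0.63; adjusted p = 0.0273), passing under 5 of 11 alternatives with adjusted p from 0.00497 to 0.309.

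The Cox4i2 call was lost without either WT P28 array (-0.57, adjusted p = 0.21, and -0.68, adjusted p = 0.0502) and without either S63del P28 array (-0.50, adjusted p = 0.25, and -0.76, adjusted p = 0.0538). Its decile of genes by signal had a median S63del minus WT difference of -0.14 at P28 and that of Cox7c -0.07, against 0.10 in the highest decile. Averaged over the 3 ages Cox4i2 was the gene called, at -0.31 ± 0.09 (SE; adjusted p = 0.0461). At 4 months it was 5.22 and 5.19 in WT and 5.37 and 4.94 in S63del nerves, so that the genotypes overlapped. This call passed without replicate 2 of S63del P28 or replicate 1 of S63del 4 months, and was lost without any other single WT or S63del array (adjusted p = 0.0557 to 0.161). The count of called genes was then 0, or 2 (Ndufaf4 and Ndufb1) without WT 4-month replicate 1.

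Both genotypes with the mutant allele were also set against both without it, 4 arrays against 4, a comparison added after the data had been seen. At P5 2 of the 84 genes passed (5 unadjusted), where 5.97% of all genes were called. The WT arrays had Cox7a1 at 7.01 and 7.43, the CHOP null arrays at 6.83 and 7.22, the S63del arrays at 6.26 and 6.5 and those of S63del/CHOP null nerves at 6.40 and 6.32. All 4 arrays with the allele lay below all 4 without it, by 0.75 ± 0.20 (-0.75; adjusted p = 0.0308). It passed under 10 of 16 alternatives, with adjusted p from 0.00234 to 0.153, and was lost without WT P5 replicate 2 (-0.65, adjusted p = 0.153), CHOP null P5 replicate 2 (-0.65, adjusted p = 0.15) or any 1 of the 4 arrays with the allele (adjusted p = 0.067 to 0.118). Ndufa13 was 12.57 and 12.38, 12.55 and 12.39, 12.16 and 12.29, and 12.16 and 12.23 in the same order, again without overlap, at -0.26 ± 0.07 (adjusted p = 0.039). It passed under 7 of 16 alternatives, with adjusted p from 0.00337 to 0.206. Apart from WT P5 replicate 2, leaving out any 1 of the 8 arrays lost the call (adjusted p = 0.0545 to 0.206).

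Some markers of other cell types and tissues moved with the allele at P5 beside Cox7a1 and Ndufa13. The mean of 14 white fat genes was 7.67 to 8.24 without the allele and 7.29 to 7.97 with it, and that of 9 brown fat genes 5.61 to 5.88 and 5.46 to 5.69. The mean of 31 skeletal muscle genes was 7.47 to 9.17 (median 8.06) and 7.20 to 8.44 (median 8.09). These tissue lists overlapped. Endothelium and pericyte genes were 8.16 to 8.44 and 8.01 to 8.13, erythroid genes 6.45 to 7.14 and 6.08 to 6.26, and Schwann cell and myelin genes 12.20 to 12.23 and 11.71 to 11.85. Fibroblast and perineurium genes were 10.94 to 11.10 and 10.77 to 10.87, and macrophage genes, which were higher with the allele, 8.35 to 8.51 and 8.56 to 8.73. The last 5 lists did not overlap between arrays with and without the allele. Their part in the differences of Cox7a1 and Ndufa13 was not tested.

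At P28 6 of the 84 genes passed in this comparison (15 unadjusted), 5 higher and 1 lower with the allele, where 28% of all genes were called. After renewed normalisation there were 3 higher and 5 lower. The P28 arrays without the allele had the narrower distributions. Their SD over all probe sets was 2.1 to 2.28, against 2.28 to 2.31 with it. The mean of their dimmest decile was 3.82 to 4.21, against 3.76 to 3.83. CHOP null P28 replicate 2 had both extremes (2.1 and 4.21). The median of the highest decile (with minus without the allele) was 0.11. The part of these distributions in the called differences was not tested. Cox7c was 0.74 ± 0.14 (SE) higher (adjusted p = 0.00152) and passed under 14 of 15 alternatives. The WT arrays had Ndufs8 at 11.14 and 11.20, the CHOP null arrays at 11.30 and 10.93, the S63del arrays at 11.58 and 11.60 and those of S63del/CHOP null nerves at 11.42 and 11.40. All arrays with the allele were higher, by 0.35 ± 0.08 (adjusted p = 0.00698), and by 0.12 (adjusted p = 0.178) in the mean of its probe sets. Ndufaf7, a methyltransferase needed for complex I assembly, was 0.27 higher (adjusted p = 0.0118) and passed under 14 of 16 alternatives. The accessory subunit Ndufb1 and Sdhd were 0.34 and 0.27 higher (adjusted p = 0.0448 and 0.0429), but each passed under only 5 of 16. When 1 array was left out, Ndufb1 passed only without CHOP null P28 replicate 1 (otherwise adjusted p = 0.0503 to 0.206), and Sdhd only without that array or WT P28 replicate 2 (otherwise 0.0648 to 0.193). Cox4i2 fell by 0.41 ± 0.11 (adjusted p = 0.0128). The Cox4i2 call was lost without replicate 1 of WT P28 (-0.38, adjusted p = 0.0508) or of S63del P28 (-0.34, adjusted p = 0.0634) or replicate 2 of CHOP null P28 (-0.29, adjusted p = 0.0552). The count was 3 without WT P28 replicate 1 or S63del P28 replicate 1 and 25 without CHOP null P28 replicate 1. Cox6a2 differed by -1.30 ± 0.49 (adjusted p = 0.0577). On the P28 arrays, macrophage genes were 8.98 to 9.17 without the allele and 9.23 to 9.40 with it, Schwann cell and myelin genes 11.85 to 12.07 and 12.08 to 12.25, and erythroid genes 6.47 to 6.84 and 5.62 to 6.43, none of which overlapped. Skeletal muscle genes, at 8.71 to 10.36 and 7.11 to 9.37, white fat genes, at 10.56 to 10.79 and 9.99 to 10.58, and the lists of brown fat, endothelium and fibroblasts overlapped. Their part in the called differences was not tested. At 4 months none of the 84 passed limma's test (0 unadjusted), where 0% of all genes were called.

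Genes that serve the chain without being part of it were read beside it, from lists named by their role. In the comparison of 4 months with P5, 57.3% of all genes were called (3837 higher and 3267 lower), and the share was 63.6%, 73.1%, 48% and 50% in the 4 lists that follow. Of 33 further assembly factors, 8 were higher and 13 lower (median -0.15). Surf1, a factor for complex IV, rose by 0.79 ± 0.05 (SE; adjusted p = 9.64e-11), and Sdhaf1, which helps insert iron-sulfur clusters into complex II, fell by 0.94 ± 0.07 (adjusted p = 2.31e-09). Of 26 carriers and electron transfer genes, 7 were higher and 12 lower (median -0.12). Cycs, cytochrome c itself, fell by 0.35 ± 0.06 (adjusted p = 6.87e-05), and Coq7, an enzyme of ubiquinone synthesis, by 0.60 ± 0.07 (adjusted p = 3.55e-07).

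Of 25 genes of the citrate cycle and pyruvate dehydrogenase, 9 were higher and 3 lower (median 0.08). Pdk4, a kinase that switches pyruvate dehydrogenase off, rose by 3.28 ± 0.18 (SE; adjusted p = 5.03e-11), and Pcx, pyruvate carboxylase, by 2.23 ± 0.14 (adjusted p = 2.92e-10). Both are abundant in fat, and the white fat genes given above rose by a median of 3.03 in the same comparison; the share of fat in them was not tested. Of 26 regulators of mitochondrial biogenesis, 7 were higher and 6 lower (median -0.05). Ppargc1a, the coactivator PGC-1alpha, rose by 0.66 ± 0.12 (adjusted p = 8.16e-05), whereas its partner Esrra and the mitochondrial transcription factor Tfam differed by -0.16 ± 0.08 and -0.10 ± 0.13 (adjusted p = 0.11 and 0.561). The 1 measured gene of mitochondrial DNA, ND5, a complex I subunit, rose by 0.33 ± 0.08 (adjusted p = 0.00223). Its ages overlapped, at 12.55 to 13.15 at P5 and 12.78 to 13.50 at 4 months. The WT arrays had 13.12 and 13.15 at P5 and 13.20 and 12.78 at 4 months, so that WT showed no clear rise. In each other genotype both 4-month arrays lay above both P5 arrays. Over the 24 arrays the genes most like the median of the main members were Mrps14 (r = 0.93), Mrpl51, Apool, Itgb1bp1 and Drg1, of which the first pair encode proteins of the mitochondrial ribosome.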

How the data were processed

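RNA of 24 sciatic nerve samples was labelled as biotinylated cRNA and hybridised to Affymetrix arrays, per the labels' protocols. For each of 22690 probe sets the authors deposited a log2 value. That unit was judged from the numbers themselves, and their normalization and software were not given in the sources used here. Of the probe sets, 64 are controls, and 691 with several symbols and 1555 with none were left out. Each of 12393 genes was represented by its brightest probe set, on average over the 24 arrays. This choice matters for the 45 of the 84 genes that have several, so the mean of all probe sets was an alternative.

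One mean per group was estimated from all 24 arrays in limma 3.58.1 (R 4.3.3; statmod 1.5.0), which leaves 12 residual degrees of freedom; p-values were adjusted over all 12393 genes by Benjamini-Hochberg with a threshold of 0.05. The fit was tested on simulated data. Comparisons were the ages over the 4 genotypes and in WT, the genotypes at each age and over ages, and the change of the S63del effect between ages. The 5 comparisons between 4 months and P5 and between arrays with and without the mutant allele were added after the data had been seen. Alternatives were renewed quantile normalization, the mean of probe sets, a filter at the 40th percentile, weighting of arrays, robust estimation with an intensity trend, a replicate block, single ages or WT alone, and leaving out each array. The members and gene lists were chosen with earlier results of these data known. In each comparison the text draws most of its names from up to 4 called genes a complex and direction with the smallest p, the gene with the smallest p where none was called, and a fixed set of isoforms and complex II genes. Atp5g3 between P5 and 4 months and Ndufaf4 between P28 and 4 months were named outside this rule. Those differences were not recomputed under the alternatives. The 2 arrays a group limit the precision. Promoters are RefSeq's for GRCm38.p6.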

Additional observations from a re-analysis of the deposited data

How the results depend on the processing

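Of the differences of named genes recomputed under the alternatives, 14533 kept their side of the threshold, 709 no longer passed, 76 newly passed and 6 reversed. A change of direction in a difference that did not pass was not counted as a reversal. Cox6a1 between P28 and P5, for example, was -0.11, and 0.09 by the mean of all probe sets. The 6 that were counted are given next. Renewed quantile normalization turned Hba-a1 between P28 and P5 to -0.05 and Sdhd between 4 months and P28 to -0.04. The mean of all probe sets turned Atp5k (-0.03) and Atp5d (-0.01) between P28 and P5, and Cox6a1 (-0.03) and Cox7a2 (0.04) between 4 months and P28. The cause was not tested beyond those settings.

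With all arrays kept or both doubted arrays left out, the counts of called members that moved by more than 1.5 times were in genotype comparisons. For S63del against WT at P5, array weights gave 1 and the 8 arrays of the age alone 1, against 0. At P28, against 2, array weights gave 1, the 8 arrays alone 0, and leaving out both CHOP null P28 replicate 2 and the first WT array at 4 months gave 8. Over the 3 ages, against 1, the filter on dim genes gave 2, array weights 3, the intensity trend 0, the replicate block 0 and leaving out those 2 arrays 4. For the mutant allele at P5, against 2, renewed normalization gave 1, array weights 4 and the replicate block 1. For the allele at P28, against 6, the mean of probe sets gave 11, array weights 1, the intensity trend 11 and the 8 arrays alone 0. The cause was not tested.

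Without 1 array in turn the counts were 60 to 69 for P28 against P5 and 64 to 70 for 4 months against P28, 29 to 43 (against 46) and 26 to 43 (against 44) for the same in WT, 41 to 45 for 4 months against P5 and 14 to 19 (against 24) for that in WT; the lowest of each WT range is over 1.5 times below its count. For S63del against WT they were 0 to 0 at P5, 0 to 1 at P28, 0 to 0 at 4 months and 0 to 2 over the ages. For CHOP null against WT they were 0 to 0, 0 to 11, 0 to 1 and 0 to 0, and for S63del/CHOP null against S63del and for the change of the S63del effect 0 to 0 throughout. For the allele they were 0 to 1, 3 to 25 and 0 to 0. An array left alone in its group was assumed to vary like the other groups. The samples share only a replicate number: of 18 correlations between the deviations of same-numbered arrays of an age 3 were over 0.1 (range -0.48 to 0.35). The replicate block changed no other count by over 1.5 times. Each group has 2 arrays. Cox7c and Cox4i2 belong to dim deciles, whose medians differed by 0.31 and 0.52 between P5 and P28. Cox4i2 moved with its decile (0.91) and Cox7c against it (-1.76). The part of the narrower P28 arrays in these values was not tested.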
